A study of Homo sapiens with 2 samples.

Results

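Divergent promoters, at which a pair of protein-coding genes on opposite strands start close together and are transcribed away from each other, held 703 of the 137412 OTX2 peaks called in D283 medulloblastoma tumorspheres. The pairs were taken from GENCODE gene records with GRCh38 positions on chromosomes 1 to 22, with transcription start sites (TSSs) at most 1000 bp apart. A peak was counted where its summit, the base with the highest fragment pileup, lay within 1000 bp of either TSS. This gave 855 pairs of 1648 genes at 794 separate loci, since 61 genes belonged to 2 or more pairs. The TSSs of a pair were 1 to 995 bp apart, with a median of 130 bp (quartiles 68.5 and 247 bp).

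D283 is an established human medulloblastoma cell line, and its tumorspheres were grown without attachment in a neural stem cell medium. The cells were untreated OTX2+ controls, that is, OTX2-expressing cells with no knockdown. Chromatin was precipitated with an antibody against OTX2 and sequenced (1 library), and the peaks were called against 1 input library. There were no replicates and no cells depleted of OTX2, so no test was made, and every interval given here covers counting error only. The OTX2 library held 84980793 fragments, 61259377 of them after removal of duplicates, and the input library held 32292980 and 22521186. A peak list holds no expression, so the cell type could not be checked against marker genes, and all values come from 1 cell line.

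OTX2 is a homeodomain transcription factor of the developing forebrain, eye and cerebellum, and it is amplified or highly expressed in many Group 3 and Group 4 medulloblastomas. Its homeodomain is of the Bicoid type, which recognises TAATCC and, less strongly, TAATCT. A divergent promoter serves both genes of its pair. Such promoters usually lie in a CpG island, mostly lack a TATA box and are common among housekeeping genes for DNA repair, mitochondria, translation and the cell cycle. Elements such as the CCAAT box, bound by NF-Y, and CCGGAAG, bound by ETS factors, are known from many of them.

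Of the peaks at divergent promoters, 6 are shown first because they carried an OTX2 motif close to a summit of high fold enrichment, and 3 because they had no such motif and a CCAAT box instead. Each sequence is 29 bp of the plus strand, 5′ to 3′, from the RefSeq promoter sequences of GRCh38.p14, with the motif nearest to the summit in capitals (GGATTA is TAATCC and ATTGG is CCAAT on the minus strand). The 6 were the highest in fold with TAATCC or TAATCT, and the 3 the highest with CCAAT only, among summits with 50 bp on either side covered by those sequences.
EFCAB11/TDP1, chr14:89954813-89954841: gccactcgcgtTAATCCcgcagggctatt
HMGB1/USPL1, chr13:30617570-30617598: tttcgtcagcgTAATCCctccgcagaaag
NOA1/POLR2B, chr4:56977697-56977725: ggttttgcgtcTAATCCcgtcagttctcg
IDH1/PIKFYVE, chr2:208266084-208266112: ctgaagcggccTAATCTcggccaaaagat
HNRNPUL2/TTC9C, chr11:62728079-62728107: tcgtttctgcgGGATTAtttttccggagc
IKZF5/ACADSB, chr10:123008904-123008932: gcagggggcagGGATTAagggggggtgtg
TK1/AFMID, chr17:78187082-78187110: acggcgtgctggCCAATcacgagccggcc
SKA2/PRR11, chr17:59155223-59155251: cggagggcctccATTGGacagctgtcact
CEP89/FAAP24, chr19:32972131-32972159: atccgttctcttATTGGtcaggttagacg
The centre of the OTX2 motif lay 4.5 bp from the summit at EFCAB11/TDP1 and at IKZF5/ACADSB, and 23.5 bp from it at HMGB1/USPL1.

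OTX2 summits were found at most divergent promoters. Of the 855 pairs, 650 had at least 1 (76.0%, 95% Wilson interval 73.0 to 78.8), and of the 794 loci 602 did (75.8%). There were 547 pairs with 1 peak, 100 with 2 and 3 with 3, which left 205 with none. In 633 pairs (74.0%) a single summit lay within 1000 bp of both TSSs. With only peaks of at least 5-fold enrichment, the share of pairs fell to 51.0%.

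Genes of divergent pairs had a summit more often than single genes, that is, protein-coding genes in no such pair. With the same window around 1 TSS, a summit was found at 1234 of 1648 paired TSSs (74.9%, 72.7 to 76.9) and at 7298 of 17330 single TSSs (42.1%, 41.4 to 42.8), where the share over all 18978 protein-coding genes was 45%. The difference was 32.8 percentage points (95% Newcombe interval 30.5 to 34.9). The genes of a pair share their summits, so the TSSs are not independent. Taking only the plus-strand gene of each locus gave 592 of 794 TSSs (74.6%, 71.4 to 77.5). In both counts the window of a paired TSS also holds the start of its partner, so summits at either start count for it. How far this moves the difference was not tested. Of the single genes, 1485 had a non-coding gene in divergent orientation within 1000 bp, and 60.1% of these had a summit, which was 14.7 points (11.5 to 18.0) below the paired TSSs. The other 15845 single genes had one in 40.4%.

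CpG content moved with this difference. A start was counted as CpG-rich when the 300 bp from 250 bp before to 50 bp after it had a GC content of at least 55% and at least 0.65 of the CpGs expected from its base composition, and 80.2% of paired but 46.0% of single TSSs met this. Among CpG-rich starts, 75.9% of paired and 58.5% of single TSSs had a summit, a difference of 17.4 points (14.8 to 19.9). Among CpG-poor starts the shares were 70.9% and 28.1%, a difference of 42.7 points (37.5 to 47.5). Against single genes with a divergent non-coding gene alone, the differences were smaller. They were 11.9 points (8.32 to 15.5) at CpG-rich and 25.9 points (18.2 to 33.1) at CpG-poor starts. A CpG-poor paired start can have a CpG-rich partner: 119 pairs had 1 CpG-rich start and 111 had none. A summit was found in 86.6% and 64.9% of these pairs, and the CpG-poor paired TSSs come from both. The difference between paired and all single TSSs was above 0 in both CpG classes, and its 2 intervals did not overlap. Whether other properties, such as transcription of the genes in these cells, moved with it was not tested.

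**Figure D1:**
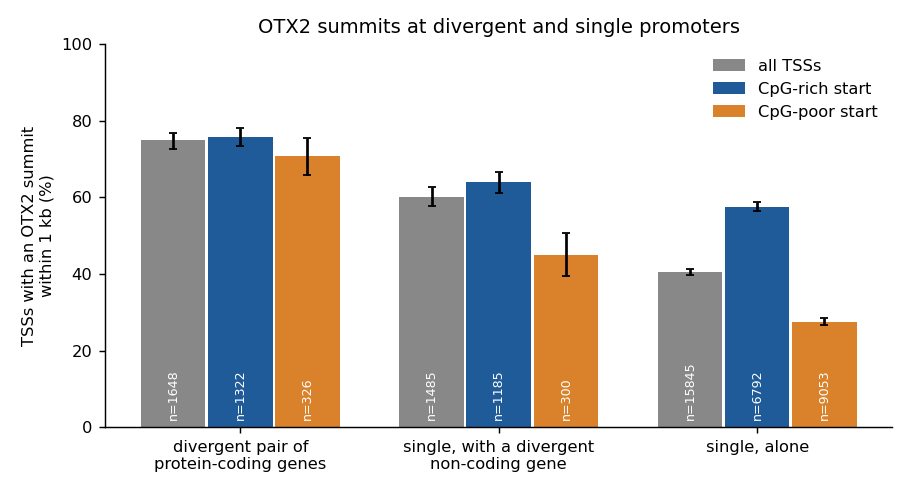
Share of TSSs with an OTX2 summit within 1 kb (percent) for genes of divergent protein-coding pairs, single genes with a divergent non-coding gene and other single genes, over all TSSs (grey), CpG-rich starts (blue) and CpG-poor starts (orange), with 95% Wilson intervals for counting error and n the number of TSSs. Paired TSSs stood at 70.9% or more in each class, whereas single genes with no divergent neighbour fell from 57.5% at CpG-rich to 27.6% at CpG-poor starts. Single genes with a divergent non-coding gene stood in between, at 64.0% and 45.0%.

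The share of pairs with a summit was also set out by the distance between the TSSs and by CpG content. Of pairs with TSSs at most 100 bp apart, 70.7% had a summit (65.6 to 75.3), against 79.3% of those up to 300 bp apart (74.8 to 83.2) and 79.9% of those farther apart (73.1 to 85.3). The region searched grows with the gap, and the intervals overlapped. In the fixed window around the plus-strand TSS of each locus the shares were 71.2% (66.0 to 76.0), 77.5% (72.8 to 81.6) and 74.8% (67.1 to 81.2). Pairs with 1 CpG-rich start had a summit most often, in 103 of 119 (86.6%, 79.3 to 91.6). The share was 475 of 625 (76.0%, 72.5 to 79.2) with 2 CpG-rich starts and 72 of 111 (64.9%, 55.6 to 73.1) with none. The median of the highest fold in a pair was 7.14 with no CpG-rich start, 7.01 with 1 and 6.01 with 2.

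Peaks at divergent promoters were of moderate enrichment and long. Fold enrichment is the ratio of the OTX2 pileup to the local input at the summit, as the peak caller gave it. Its median was 5.80 over the 703 peaks (quartiles 4.12 and 8.46, range 1.93 to 32.6), 5.21 over the 7530 peaks at single promoters and 6.10 over all peaks. At least 10-fold enrichment was reached by 106 (15.1%, 12.6 to 17.9), against 13.8% at single promoters and 26.3% of all peaks, and at least 20-fold by 11 (1.56%, against 6.72% of all peaks). The summits held a median of 51 OTX2 fragments (quartiles 35 and 73), against 45 at single promoters and 53 over all peaks. The median length was 583 bp (quartiles 399 and 883 bp), against 520 bp and 440 bp. Of the 703 peaks, 141 were at least 1000 bp long (20.1%), against 14.6% at single promoters and 8.16% of all peaks. The local input had a median of 5.00 in all 3 sets. At the other end, the lowest folds were 1.93 at CORO7/DNAJA3, 2.06 at FOXM1/TULP3 and 2.10 at PRADC1/CCT7, where the local input was 14.0, 17.0 and 18.0.

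**Figure D2:**
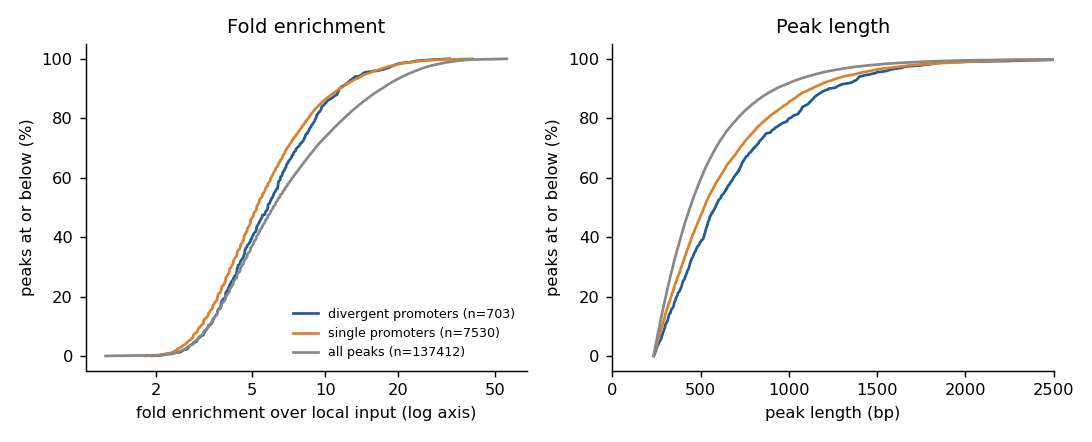
Cumulative share of peaks (percent) by fold enrichment over local input (left, log axis) and by peak length in bp (right) for the 703 peaks at divergent promoters (blue), 7530 at single promoters (orange) and all 137412 peaks (grey). The blue fold curve runs near that of all peaks below 5-fold and near that of single promoters above 10-fold, and the blue length curve, with its median of 583 bp, lies to the right of the others over most of its range.

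Summits were densest between the TSSs. With 1 pair for each locus, 238 of 703 summits lay between the TSSs (33.9%, 30.5 to 37.4), which was 1.53 summits per kb, 227 lay on the side of the minus-strand gene (0.286 per kb) and 238 on that of the plus-strand gene (0.300 per kb). The intervals of the shares on the 2 sides overlapped. Each side was averaged over 1000 bp, whereas the TSSs of the pairs were a median of 130 bp apart. The zones thus differ in how far they reach from a TSS. The median fold was 6.42 between the TSSs and 5.26 on either side. Summits between the TSSs made up 24.4% of those under 5-fold (19.7 to 29.7), 39.5% of those from 5-fold to under 10-fold (34.2 to 45.0) and 42.5% of those of at least 10-fold (33.5 to 52.0). The share between the TSSs depends on which start is taken: with the start of each gene's canonical transcript in place of the outermost start of its record, it was 55.1% of 818 summits, at 1.72 summits per kb between and 0.209 per kb outside.

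The midpoint of the TSSs lay within 100 bp of 39.5% of the summits, within 200 bp of 54.2% and within 500 bp of 75.5%. The density between the TSSs was 2.56 summits per kb where they were at most 100 bp apart, 2.04 per kb up to 300 bp and 0.903 per kb beyond, all above the density of 0.231 to 0.348 per kb outside them in these classes. A peak covered both TSSs in 436 cases (62.0%). That share was 72.2% for the closest pairs, 64.6% for the next and 37.2% for the widest. Measured from the TSS, 53.7% of the summits near paired TSSs lay within 200 bp of it (51.1 to 56.3). The share was 46.0% near single TSSs (45.0 to 47.1) and 47.9% near single CpG-rich TSSs. A summit was counted from each TSS within 1000 bp, so the 703 summits gave 1398 positions near paired TSSs. Positions of the same summit are not independent, so the interval for paired TSSs is too narrow. In the 100 bp just upstream there were 18.6 summits per 100 paired TSSs, and in the 100 bp just downstream 9.59. Near single CpG-rich TSSs these values were 12.4 and 5.88. Upstream of the TSS lay 65.6% of the summits near paired TSSs and 65.1% of those near single CpG-rich TSSs.

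**Figure D3:**
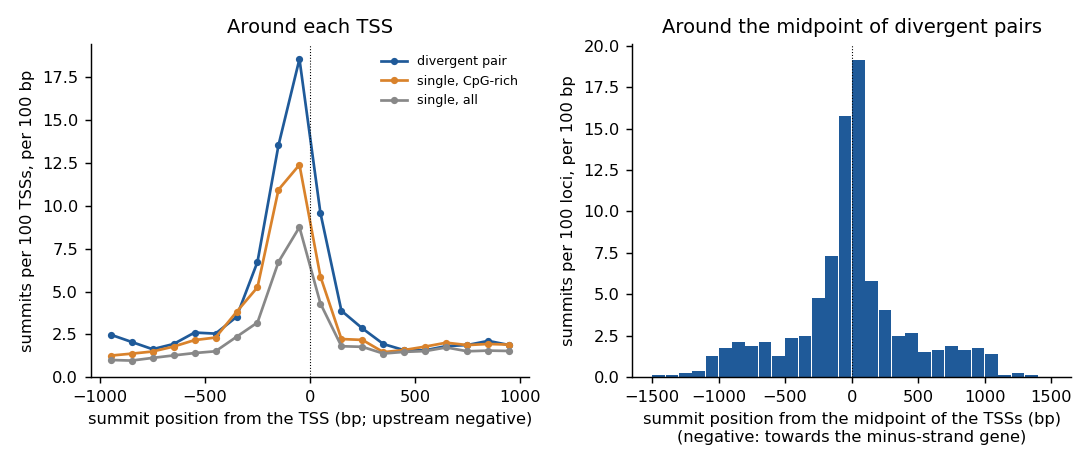
Left, summits per 100 TSSs in bins of 100 bp by position from the TSS (bp, upstream negative) for genes of divergent pairs (blue), single genes with a CpG-rich start (orange) and all single genes (grey); right, summits per 100 loci in bins of 100 bp by position from the midpoint of a divergent pair (bp). The blue line peaks at 18.6 in the 100 bp upstream of the TSS, and the bars are highest in the 2 bins next to the midpoint and low on both sides. On the left a summit counts from each TSS within 1 kb.

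By annotation, 221 of the 703 summits (31.4%) lay outside every protein-coding gene. A further 214 (30.4%) lay in a gene record but upstream or outside of its canonical transcript, 159 (22.6%) in an intron, 87 (12.4%) in an untranslated part of an exon and 22 (3.13%) in coding sequence.

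The summit with the highest fold stood between EFCAB11, an EF-hand protein gene, and TDP1, which encodes the phosphodiesterase that repairs topoisomerase I adducts on DNA. This peak (chr14:89954594-89955334) had 220 fragments (exact Poisson 95% interval 192 to 251) and a fold of 32.6, and its summit lay 54 bp from the TSS of EFCAB11 and 108 bp from that of TDP1, outside both genes. A second peak, 888 bp into TDP1, had a fold of 3.22 at a local input of 13.0. At SASS6/TRMT13 (a centriole cartwheel protein and a tRNA methyltransferase) a peak of 191 fragments and 28.4-fold enrichment also had its summit between the TSSs. It was followed by HSF2BP/RRP1B with 28.0-fold, whose summit lay 466 bp into HSF2BP, in an intron. The next was PCNA/CDS2, the genes of the sliding clamp of DNA replication and of a CDP-diacylglycerol synthase, with 200 fragments and 27.2-fold enrichment 315 bp into the PCNA record. TK1/AFMID (thymidine kinase and an arylformamidase) had 160 fragments, 23.8-fold and a peak of 1503 bp over both TSSs, with the summit 152 bp inside TK1.

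Below these, EXOSC5/BCKDHA (an RNA exosome subunit and a subunit of branched-chain keto acid dehydrogenase) had 254 fragments and a fold of 23.4. SEZ6L2/ASPHD1 reached 23.2-fold with 156 fragments, 123 bp from the start of SEZ6L2, a neuronal membrane protein gene. SKA2/PRR11 held the tallest summit of all the members, with 298 fragments (265 to 334) and a fold of 23.0 at a local input of 8.56; SKA2 belongs to the spindle and kinetochore complex. PCSK4/REEP6 had 22.1-fold enrichment, EMC7/PGBD4 21.5-fold and PUS7L/IRAK4 19.9-fold. At TPRX1/CRX, whose CRX is the OTX-family factor of photoreceptors and the pineal gland, the summit lay 294 bp into the CRX record with 197 fragments and 20.8-fold. Height and fold did not rank alike: NUDCD1/ENY2 had a summit of 238 fragments, among the 5 tallest, and a fold of only 9.78 over a local input of 17.0.

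**Figure D4:**
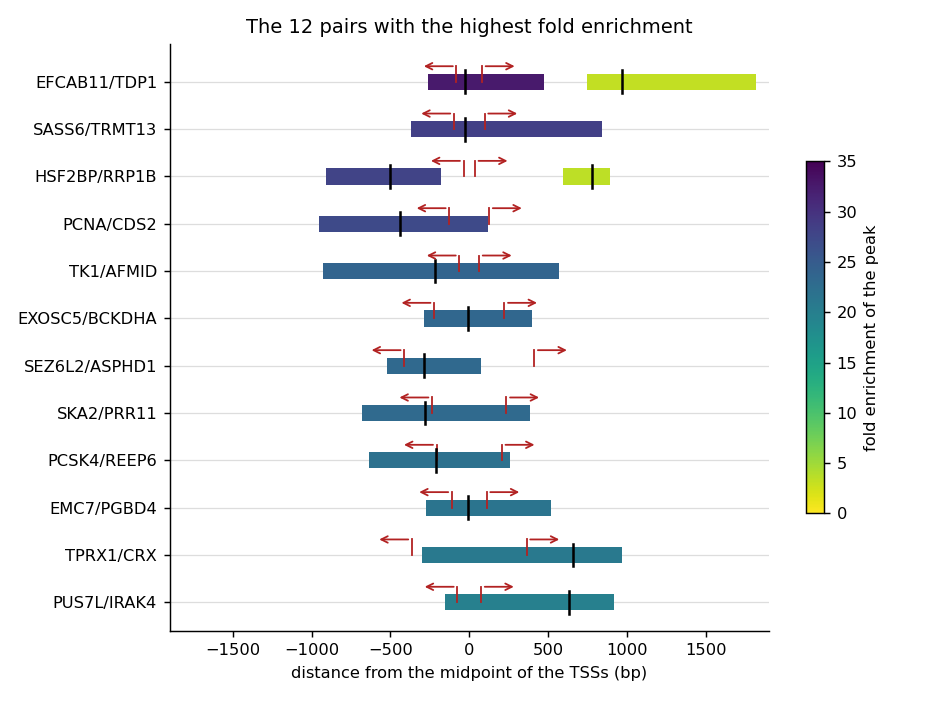
Peaks at the 12 pairs with the highest fold enrichment by distance from the midpoint of the TSSs (bp), with the peak as a bar coloured by its fold, its summit as a black tick and the TSSs and directions of transcription as red arrows. At EFCAB11/TDP1, SASS6/TRMT13, EXOSC5/BCKDHA, SEZ6L2/ASPHD1 and EMC7/PGBD4 the summit lies between the TSSs, and at PUS7L/IRAK4 and HSF2BP/RRP1B it lies 558 and 466 bp from the nearer TSS.

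Some pairs had several peaks. At the 98 loci with 2 or 3 summits, 40 had a summit beyond each TSS (40.8%), 47 had a summit between the TSSs (48.0%) and 13 had all of them on 1 side (13.3%). The highest fold had a median of 6.15 in the 103 pairs with 2 or 3 peaks and 6.37 in the 547 with 1. The pairs with 3 peaks were 3 in number. At MIX23/FAM162A the folds were 7.08 at 987 bp inside MIX23, 4.66 at 1 bp from its start and 3.71 at 4 bp from the start of FAM162A. At the histone pair H2AC14/H2BC14 they were 3.70 between the starts, 10.2 at 718 bp from the H2AC14 start and 4.54 at 899 bp from the H2BC14 start. ANKMY2/BZW2 had folds of 6.84 between the starts, 4.62 inside ANKMY2 and 4.97 inside BZW2.

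Of the pairs that textbooks give as bidirectional promoters, 10 met the distance rule and 9 of them had a summit. Over all pairs the count was 650 of 855 (76.0%). Another 10 textbook pairs, such as HSPD1/HSPE1, were not pairs under that rule. TK1/AFMID was highest, followed by TMEM258/FEN1 with 103 fragments and 15.4-fold enrichment; FEN1 encodes the flap endonuclease of DNA replication and repair. AURKA/CSTF1, a mitotic kinase and an mRNA cleavage factor, had 75 fragments and 7.02-fold. PRKDC/MCM4, of which PRKDC is the catalytic subunit of DNA-dependent protein kinase and MCM4 a replicative helicase subunit, had 2 summits, although its starts are 7 bp apart: one lay 768 bp into PRKDC with a fold of 4.48 and the other 622 bp into MCM4 with a fold of 6.54. PPAT/PAICS, which encode enzymes of purine synthesis, likewise had 2, with folds of 3.50 and 6.01. Lower folds were found at COL4A4/COL4A3 (type IV collagen chains) with 4.22-fold, SIRT3/PSMD13 3.74-fold and NPAT/ATM (a histone gene activator and the DNA damage kinase) 3.71-fold, with 24 to 44 fragments. SARS2/MRPS12 had no peak.

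The gene lists below are selections and may leave out genes of their kind. Listed genes of DNA replication and repair were in 41 pairs. Of these, 30 had a summit (73.2%) and 6 one of at least 10-fold, compared with 650 (76.0%) and 118 of all 855 pairs. Pairs that share a gene can share a summit and count separately here; the 118 pairs were 106 loci. PCNA/CDS2 and TMEM258/FEN1 led the listed pairs, followed by RECQL5/SAP30BP at 13.2-fold (RECQL5 is a DNA helicase). EFCAB11/TDP1, with the repair gene TDP1 and 32.6-fold, was not in this list. BRCA1/NBR1 had 5.99-fold, and POLE/PXMP2, PMS2/AIMP2 and LIG1/ZSWIM9 were without a peak. Cell cycle and mitosis genes were in 22 pairs and 20 had a summit (90.9%). After SKA2/PRR11 came CDC26/PRPF4 with 15.5-fold, where CDC26 is a subunit of the anaphase-promoting complex, and SLU7/PTTG1 with 10.9-fold, where PTTG1 encodes securin. CENPB/CDC25B and ANAPC2/SSNA1 had none.

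The 10 pairs with a listed cytosolic ribosomal protein gene all had a summit. Their median highest fold was 7.08 and none reached 10-fold, beside 76.0% with a summit and a median of 6.37 over all pairs. The highest were RPL18/SPHK2 at 9.08, TRIM66/RPL27A at 8.94 and RPL35/ARPC5L at 8.85, and the lowest of these 10 was RPL12/LRSAM1 at 4.08. The list does not hold every such gene: RPL36AL/MGAT2, outside it, had 3.16-fold. Mitochondrial ribosomal protein genes were in 18 pairs, 12 of them with a summit (66.7%; 10 of 16 loci) and with a median highest fold of 5.41. MITD1/MRPL30 stood far above the others with 129 fragments and 18.8-fold, ahead of MRPL50/ZNF189 with 7.81. Among the pairs of this list without a summit was MRPL46/MRPS11, in which both genes encode mitochondrial ribosomal proteins. The respiratory chain and ATP synthase list had 29 pairs, 24 with a summit (82.8%; 23 of 28 loci) and 5 at 10-fold or more, which were 4 loci, since NDUFA11 is in 2 of the pairs. NDUFA11/VMAC reached 14.0-fold and NDUFA8/MORN5 12.7-fold, both with complex I subunits, and COX11/STXBP4 11.4-fold, with an assembly factor of cytochrome c oxidase. The 6 mitochondrial import pairs, at 5 loci, all had a summit, led by YIPF2/TIMM29 with 9.85-fold and ARFIP2/TIMM10B with 8.16-fold.

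RNA polymerase II, Mediator and splicing genes were in 32 pairs, of which 26 had a summit (81.2%) and 6 reached 10-fold, with a median highest fold of 7.03, beside 76.0% of all pairs with a summit and a median of 6.37. Among the highest were NOA1/POLR2B with 19.0-fold, with the second largest subunit of RNA polymerase II, and FUZ/MED25 with 18.5-fold, with a Mediator subunit. At ZBTB4/POLR2A, whose POLR2A encodes the largest subunit, the folds were 11.3 at 586 bp into ZBTB4 and 6.39 at 523 bp into POLR2A. Histone genes were in 12 pairs and 7 had a summit (58.3%; 6 of 11 loci), with a median highest fold of 9.05. H2BC12/H2AC12 had 128 fragments and 19.1-fold, H2AC14/H2BC14 10.2-fold and H2BC4/H2AC6 10.1-fold, while H2BC21/H2AC20, H2AC25/H2BC26, H2AC1/H2BC1, H3C7/H2BC9 and H2BC11/H2AC11 had none. These genes are near-identical copies, so reads from one can map to another. Zinc finger genes were in 29 pairs and 23 had a summit (79.3%; 21 of 27 loci), of which ZNF668/ZNF646 with 10.6-fold was the only pair above 10-fold, followed by UIMC1/ZNF346 with 9.73 and IRGQ/ZNF576 with 9.58. The proteasome list was low: 5 of its 6 pairs had a summit, with PSMB1/TBP highest at 4.35-fold, PSMA2/MRPL32 at 4.03 and PSMA1/PDE3B at 3.78. Among the 5 was PSME3IP1/RSPRY1, although PSME3IP1 is not a proteasome subunit. The starts of PSMB1/TBP are 995 bp apart, and the 4.35-fold summit lay 418.5 bp from their midpoint, towards TBP. The summit on the side of PSMB1 had 4.00-fold. Of the 3 aminoacyl-tRNA synthetase pairs RARS2/ORC3 had 5.16-fold and LYRM4/FARS2 2.97-fold. No gene of the neuronal development and axon guidance list was in a divergent pair. This holds for the listed genes only: SEZ6L2, a neuronal membrane protein gene outside that list, was in SEZ6L2/ASPHD1 with 23.2-fold. Several pairs belong to 2 lists, and no list was tested against the others.

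The OTX2 motif was infrequent in the promoters of the pairs as a whole. TAATCC or TAATCT, on either strand, was in 122 of the 1648 windows of 300 bp around the starts of paired genes (7.40%, 6.24 to 8.77), compared with 13.2% of all protein-coding genes and 6.91% of single genes with a CpG-rich start. The shorter TAATC, which both motifs contain, was in 11.3% and 19.5% of paired and all genes. Among the paired genes the OTX2 motif was in 8.43% of those with a summit and 4.35% of those without. These windows were read from GRCh37 at each gene's own start in that build.

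At the summits the motif moved with fold. The RefSeq sequences of GRCh38.p14 covered 50 bp on either side of 354 of the 703 summits (50.4%). At single promoters they covered a smaller share, 2598 of 7530 summits (34.5%). The following holds for the covered summits alone. TAATCC or TAATCT was in 27 of the 354 (7.63%, 5.29 to 10.9), and in 17 of the 27 its centre was within 20 bp of the summit. In a stretch of the same length in the middle of the GRCh37 windows it was in 4.79% of all protein-coding genes and 0.966% of paired genes with no summit. By fold, it was in 5 of 119 summits under 5-fold (4.20%), in 10 of 184 from 5-fold to under 10-fold (5.43%) and in 12 of 51 of at least 10-fold (23.5%, 14.0 to 36.8). At single promoters the shares were 3.94%, 9.09% and 39.9% (35.1 to 44.9). At 10-fold or more the share at divergent minus that at single promoters was -16.4 points (-27.1 to -2.29). Among CpG-rich starts alone the shares were 22.7% and 35.5%, and the difference of -12.8 points had an interval that included 0 (-24.6 to 2.65). Most of the strongest summits with sequence, 39 of 51, had neither TAATCC nor TAATCT within this distance, TK1/AFMID and SKA2/PRR11 among them.

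The CCAAT box was in 108 of the 354 summits (30.5%, 25.9 to 35.5) and in 24.9% of those at single promoters, against 18.7% of stretches of the same length in all protein-coding windows. At 10-fold or more it was in 21 of 51 summits at divergent promoters (41.2%, 28.8 to 54.8) and in 26.8% at single promoters, a difference of 14.4 points (1.14 to 28.7). Among CpG-rich starts alone the shares were 38.6% and 27.2%, and the difference of 11.4 points had an interval that included 0 (-2.85 to 27.1), as did those of the lower fold classes over all starts. CCGGAAG was in 14.1% of the summits and 10.4% of those at single promoters. TATAAA, the TATA box, was in 1.69% and 1.39%. Over the 300 bp windows, CCGGAAG was in 27.7% of paired and 10.5% of single genes, the palindromic NRF1 motif in 4.07% and 1.25%, GGGCGG in 72.3% and 50.9%, CCAAT in 40.3% and 35.1%, and TATAAA in 4.85% and 11.4%. Of these, CCAAT separated paired genes with a summit from those without by the most, with 43.6% against 30.4%, while GGGCGG was in 72.8% and 71.0% and CCGGAAG in 28.6% and 24.9%. All motifs were searched on both strands; a match is a description of the sequence, not a bound site.

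**Figure D5:**
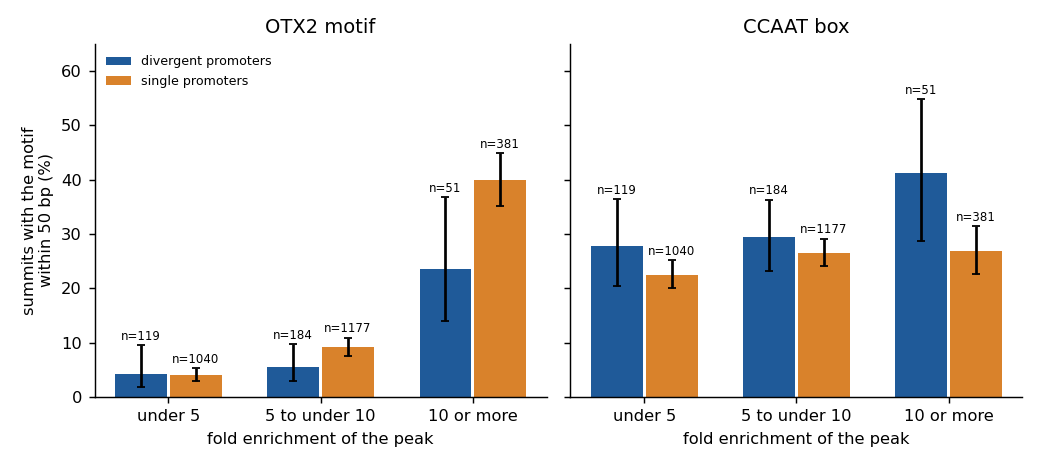
Share of summits (percent) with TAATCC or TAATCT (left) or CCAAT (right) within 50 bp of the summit, by fold enrichment of the peak, at divergent (blue) and single (orange) promoters, with 95% Wilson intervals for counting error and n the number of summits with sequence. The OTX2 motif share is 23.5% at divergent and 39.9% at single promoters for peaks of at least 10-fold, and the CCAAT share there is 41.2% and 26.8%.

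At the edge of the 1000 bp window, the summits just inside were at MMS19/UBTD1 (1000 bp, 4.54-fold), ASH1L/MSTO1 (999 bp, 3.38-fold) and DNAAF10/PNO1 (999 bp, 5.66-fold). Those just outside were near TBC1D16/CCDC40 (1010 bp, 4.93-fold), ELF1/WBP4 (1015 bp, 4.85-fold) and DLG2/TMEM126B (1017 bp, 15.7-fold).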

How the data were processed

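Per the labels, tumorsphere chromatin was precipitated with an OTX2 antibody and compared with input. The authors mapped fragments to GRCh38 with bowtie2 2.2.4 and called peaks with MACS2 2.1.0.20140616 (per the file header: paired-end mode, duplicates removed, q cutoff 0.05). The study states that blacklisted regions were masked, which was not checked here. The deposited table gives for each peak the pileup (a signal, in fragments scaled to the smaller library), the fold ratio over the local input, and −log10 p-values and q-values. The pileup was divided by 0.7353 to give whole OTX2 fragments, and the local input is (pileup + 1)/fold − 1, at least 3.98.

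Starts and annotation came from GENCODE release 44, lifted to GRCh37, whose records keep their original GRCh38 positions; no coordinates were converted. Exact starts in GRCh37 were used only for the GC, CpG and motif content of 300 bp windows. Sequences at summits came from RefSeq promoters of GRCh38.p14. Values were computed with Python 3.11.15, pandas 2.3.3, numpy 2.4.6 and scipy 1.17.1. The counting of summits was tested on simulated summits, and the finding of pairs by a direct search on some chromosomes. The other steps were not tested in this way. With 1 library of each kind there were no tests: shares have Wilson, differences of shares Newcombe and fragments exact Poisson intervals (95%).

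BRCA1/NBR1, ZBTB4/POLR2A, RPL36AL/MGAT2, PSME3IP1/RSPRY1, the pairs of a list without a peak, the lowest listed ribosomal pair and the motif examples were named after their values were seen. The other pairs named are the 12 with the highest fold, the 5 tallest, those with the most peaks, every textbook pair, up to 3 per other gene list by fold, the 3 lowest folds and the 3 summits on each side of the window edge. A few pairs under this rule are not reported here. Members and lists were chosen with earlier results of these data known. The alternatives were stricter peaks, another window, gap, start or overlap rule, and leaving out chromosome 7, peaks of high input or readthrough genes.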

Additional observations from a re-analysis of the deposited data

How the results depend on the processing

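Under 12 alternatives, 42 of 58 values stayed within the 95% interval of the main value and 16 fell outside it. A reversal could be counted only for the difference between paired and single TSSs, which was above 0 in 11 of 11 alternatives. Dropping peaks or narrowing the window can only lower the share of pairs with a summit. A fold cutoff can only raise the median fold, and TAATC is part of both motifs. Such moves follow from the alternatives themselves, and the cause of the others was not tested. The share of pairs with a summit was 70.8% with −log10 q of 5 or more, 51.0% with only peaks of at least 5-fold, 68.9% in a window of 500 bp, 79.4% with canonical transcript starts and 73.0% without peaks whose local input was at least 3 times the lowest. With a fold of at least 5 the difference between paired and single TSSs was 25.5 points, the median fold 7.68, the median height 66 fragments, the median length 715.5 bp and the share of summits between the TSSs 40.2%. The median fold was 6.19 with −log10 q of at least 5 and 6.12 in a window of 500 bp. The share between the TSSs was 43.0% in a window of 500 bp, 29.5% with gaps of at most 300 bp and 55.1% with canonical transcript starts. TAATC alone was in 11.3% of paired promoter windows. Leaving out readthrough records was chosen after seeing the data.

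No paired analysis was possible because the design holds a single OTX2 library with its input. Depth limits the list at low fold: the members held 17 to 298 fragments at the summit, and a pair with no peak is one in which none was called at this depth, not one shown to lack OTX2. Variation between cultures could not be measured.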

Other observations

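The share of divergent pairs with an OTX2 summit, 76.0% over all pairs, was lowest on chromosome 7. It was 13 of 32 pairs there (40.6%, Wilson interval 25.5 to 57.7), and single TSSs were also lowest (24.97%). Chromosome 16 had 21 of 41 (51.2%, 36.5 to 65.7), beside 31.9% of single TSSs. Chromosome 20 had 14 of 24 (58.3%, 38.8 to 75.5), beside 37.7%. On chromosome 14 a summit was found at 35 of 40 pairs (87.5%, 73.9 to 94.5), beside 45.3% of single TSSs. Chromosome 2 had 48 of 57 (84.2%, 72.6 to 91.5), beside 45.9%. On chromosome 18 all 9 pairs had a summit (70.1 to 100), beside 51.8%. The intervals of chromosomes 14, 2 and 18 include 76.0%. The chromosomes named are among the lowest and highest of the 22. Whether the DNA copy number of these chromosomes in D283 moves with these shares was not tested.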
